A study of Homo sapiens with 18 samples.

Results

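LOC387763 is a gene of human chromosome 11, listed under its older name on the Agilent arrays of this study and called C11orf96 in RefSeq, where it carries the same gene number. It was chosen by its log2 ratio of treated over control signal, which stood among the largest after every exposure to silica nanoparticles (NPs), and it is 1 of 21233 genes with a usable signal. All noncontrol probes named LOC387763 were taken. There was 1, probe A_32_P74409, with 1 spot on each array.

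RNA was measured on 18 one-colour arrays of A549, an established epithelial cell line from a human lung adenocarcinoma, in 6 groups of 3 biological replicates lettered A, B and C. Cells were exposed for 2 h in serum-free medium to Ludox colloidal silica and then kept in complete medium with serum for a recovery of 3 h or 22 h. The treated groups were SM30 NPs (9 nm of diameter) with 3 h of recovery, AS30 NPs (18 nm) with 3 h, and AS30 NPs with 22 h. Each had its own control group, which went through every step, the serum-free interval included, without NPs. The arrays lay on 5 slides, told apart by their barcodes, since the labels name no slide. AS30-treated arrays of 3 h shared no slide with their controls. Of the SM30-treated arrays only replicate A lay on the slide of its controls. The AS30-treated arrays of 22 h shared a slide with control C of that time, and controls A and B lay on others. All 9 of the A549 epithelial markers on the array were well above background on all 18 arrays, as were CD3E, CD14, COL1A1 and ACTA2, and of the 4 endothelial markers PECAM1 was so on 0 arrays, CDH5 on 1, KDR on 2 and VWF on 11. Probes scored as positive and significant made up 66.0% to 83.7% of an array.

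C11orf96 encodes a small protein with no well-established function, so it belongs to no pathway whose other members could be counted beside it. The genes that lie around it were examined in place of one, and so were the immediate-early genes, which are switched on within minutes to hours of a stimulus by transcription factors already present in the cell. Silica particles are known in lung epithelium for stress and inflammatory responses. Serum given back after a serum-free interval is itself a stimulus of immediate-early genes, and controls and treated cells both received it.

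The probe lay at chr11:43921914-43921973 on the plus strand of the hg18 build, and its transcript in the array annotation is ENST00000339446. Whether these bases are coding or untranslated was not analysed here. In the gene order of RefSeq, C11orf96 lies between ALKBH3, a DNA repair demethylase, and ACCS, both of which were also measured, and the listed span of a further gene, ACCSL, takes it in. A probe on the minus strand, for the transcript BC024745, ends 153 bases before it. The LOC387763 spot was positive and significant on 18 of 18 arrays, well above background on 15, saturated on 0 and marked as an outlier on 0.

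After SM30 NPs the LOC387763 signal, on a linear scale after quantile normalization, was 5828, 5395 and 4920 in the replicates A, B and C. In their controls it was 96.8, 99.7 and 130. Every treated array was far above every control, and the 3 treated arrays lay within 1.18-fold of each other, the narrowest group of the 6. A complete separation of this kind, upwards, was seen in 19.2% of the probes measured in all 3 SM30 pairs, and since the rise chose the gene nothing is read from it.

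After AS30 NPs and 3 h of recovery the LOC387763 signal was 1608, 8905 and 3766 in A, B and C. The controls stood at 68.7, 140 and 82.9. The groups were again apart, as were those of 13.2% of probes, but the treated arrays spread over 5.54-fold and bracketed all 3 SM30 values. Control C was not well above background.

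After 22 h of recovery the signal was 505, 77.7 and 488 in the AS30-treated replicates A, B and C. The controls of that time had 38.1, 6.27 and 92.3, and only control C was well above background. Here the groups overlapped, because treated replicate B lay below control C; of all probes measured in the 3 pairs, 12.8% were apart upwards. Both arrays lettered B were the lowest of their group, treated B by 1.78 and control B by 2.16 on the log2 scale below the group mean.

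**Figure D1:**
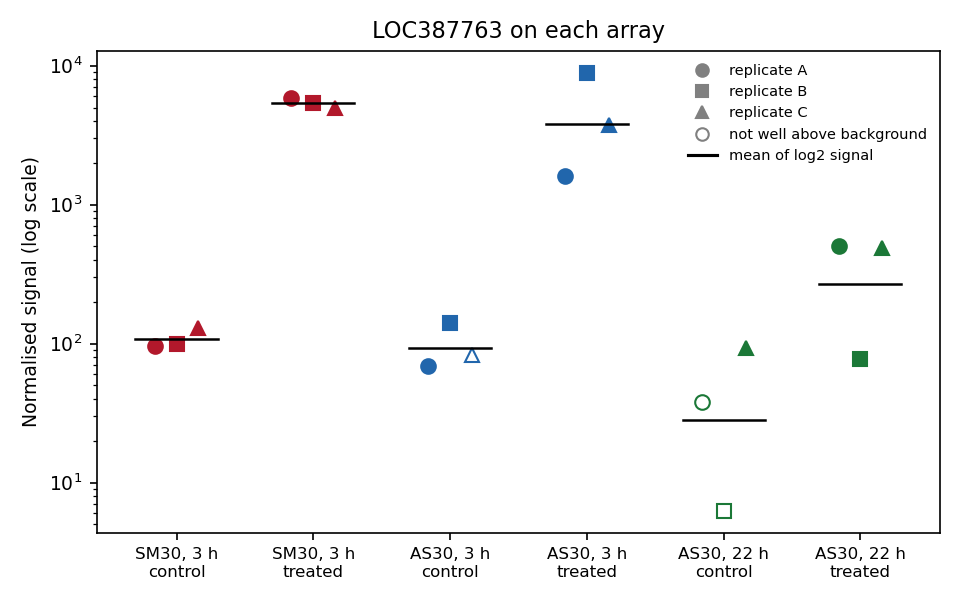
Normalised signal of LOC387763 on each of the 18 arrays, on a log scale; points are single arrays, their shape the replicate letter, open points were not well above background, and lines are means of the log2 signal. Treated arrays at 3 h sit between 1608 and 8905, all above their controls at 68.7 to 140, whereas at 22 h treated replicate B (77.7) lies below control C (92.3).

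Ordered by the mean of the log2 signal, the groups ran from SM30 at 12.39 ± 0.12 (SD, n = 3 in every group) through AS30 at 3 h at 11.88 ± 1.23 and AS30 at 22 h at 8.06 ± 1.54 to the SM30 controls at 6.75 ± 0.23, the AS30 controls at 3 h at 6.54 ± 0.53 and the AS30 controls at 22 h at 4.81 ± 1.98. Neighbours in this order had overlapping arrays, with 1 exception. Only between AS30 at 3 h and AS30 at 22 h did no array of one group enter the range of the next. Fewer cells with the transcript and less transcript per cell cannot be told apart in such bulk samples.

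Each treated array was then divided by the control of the same letter. The methods of the study divide by a corresponding control, and that the letter names it is an assumption made here. Deviations of same-lettered arrays from their group means correlated at only -0.09 to 0.45 over all probes. For SM30 pairs A, B and C of LOC387763 gave log2 ratios of 5.91, 5.76 and 5.24, with a mean of 5.64 ± 0.35 (SD, n = 3), or 49.8-fold. For AS30 at 3 h it was 4.55, 5.99 and 5.51, with a mean of 5.35 ± 0.73, or 40.7-fold. For AS30 at 22 h it was 3.73, 3.63 and 2.40, with a mean of 3.25 ± 0.74, or 9.54-fold. The ratio was above 0 in 9 of 9 pairs. These 3 means chose the gene and were not tested.

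Among the probes measured in all 3 pairs of a class, LOC387763 had the second largest mean ratio in each of the 3 classes. It followed MMP1, the interstitial collagenase, at 7.09 after SM30 and 6.04 after AS30 at 3 h, and ALDOC, the glycolytic enzyme aldolase C, at 3.35 after 22 h. Lists of the largest rises were taken from those probes that were also above 0 in every pair and had an adjusted p under 0.05 in limma, a linear model described below. LOC387763 was the only probe among the 5 largest rises of all 3 classes in these lists, and also the only one among the 10 largest. Since the ratios chose the gene, nothing is read from this. Without that filter and with probes missing a pair counted too, LOC387763 ranked 2 of 28664 after SM30, 3 of 28596 after AS30 at 3 h and 9 of 28155 at 22 h. MMP1 had 4.04 at 22 h, where a pair was missing for it.

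The other large rises differed in how they ran over the classes. CABP7, a calcium-binding protein, had 5.41 after SM30 but 2.14 after AS30 at 3 h and 1.34 at 22 h, and CD86, a costimulatory molecule, had 4.91, 2.77 and 2.10. The unnamed transcript THC2609820 had 5.17, 2.52 and 1.86. STC1, a secreted glycoprotein of calcium and phosphate balance, had 3.15, 3.10 and 2.69, but its AS30 controls at 3 h were well above background on only 1 of 3 arrays. ALDOC, in contrast, had 0.06 after SM30 and 0.04 after AS30 at 3 h, RAB33A, a small GTPase, 0.27 and -0.55 against 3.15 at 22 h, and ACSS2, which makes acetyl-CoA from acetate, 0.21 and 0.03 against 2.93. At 22 h the controls of ALDOC, RAB33A and LOC387763 were well above background on 1 of 3 arrays each, and those of ACSS2 on 3. THC2544236 and AA969200 after AS30 at 3 h and the integrin subunit ITGAX at 22 h also stood among the largest 5 of a class, but their controls were well above background on 0 of 3 arrays, so no size is given.

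The size of the LOC387763 ratio turned on how the dim controls were handled. Scaled to the 75th percentile in place of quantile normalization, the log2 ratios at 22 h were 3.86, 2.12 and 2.50, the change lying in pair B, whose control is the dimmest of the 18 spots with a processed signal of 11.5. With the normexp background correction the ratios were 1.30, 0.35 and 0.92 at 22 h, and their means were 3.85 after SM30, 3.31 after AS30 at 3 h and 0.86 at 22 h. That correction put the 1st percentile of the signal at 318 to 340, against 9.75 to 18.0 for the processed signal, so that control values of LOC387763 fell near its lower end. All 9 ratios were above 0 under both.

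**Figure D2:**
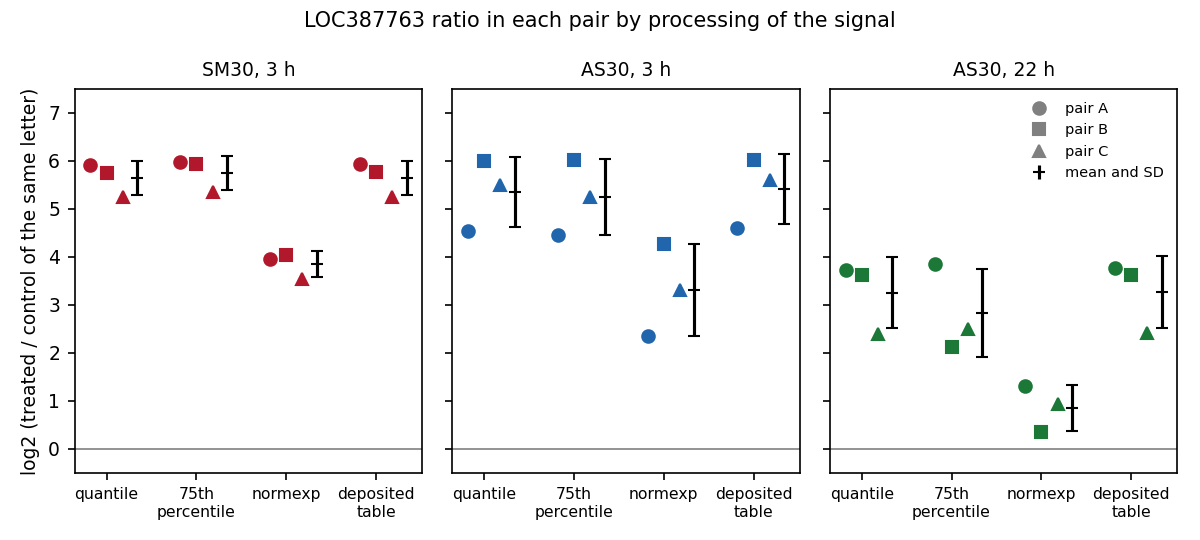
Log2 ratio of LOC387763, treated over control of the same letter, in each of the 9 pairs (shape: pair letter) under 4 ways of processing the signal, with mean and SD (n = 3). All points lie above 0; with normexp the means are 3.85, 3.31 and 0.86 in place of 5.64, 5.35 and 3.25.

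The 2 NPs were compared at 3 h through the difference between their responses, a measure that did not choose the gene. The LOC387763 response to SM30 exceeded that to AS30 by 0.29 on the log2 scale (SE 0.45, 95% interval -0.75 to 1.33), with an adjusted p of 0.795 in limma, a linear model fitted over all probes. No difference between the smaller and the larger NPs was thus detectable for LOC387763 with 3 pairs each, and the interval still holds differences of 1.33 in favour of SM30 and 0.75 in favour of AS30. The direction turned to -0.11 without the A pair of AS30. Of all probes, 0.014% passed this comparison. The study states the same mass concentration for both NPs in the array experiment.

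The 2 recovery times were compared in the same way. The LOC387763 response to AS30 at 22 h minus that at 3 h was -2.09 (SE 0.45, 95% interval -3.13 to -1.06), with an unadjusted p of 0.00147 and an adjusted p of 0.119 in limma, which does not pass. Every ratio at 22 h, the highest being 3.73, was below every ratio at 3 h, the lowest being 4.55, as held for 9.27% of the probes measured in all pairs. The 22 h ratios of A and B rest on controls that were not well above background. Only 0.0285% of probes passed this comparison. With the mean of the 3 controls as the denominator the difference was -2.73 and passed, at an adjusted p of 0.0435, but that denominator leaves out the spread of the controls. With slide as a fixed block it was -6.42 (adjusted p = 0.224 in limma), a value that rests on the dim control B of 22 h through the slide layout. The SE and interval above also rest on the pairing by letter. In a fit of the 18 arrays without that pairing the difference was again -2.09, with an adjusted p of 0.443 in limma.

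The controls alone showed how far LOC387763 varied without NPs. For AS30 the controls at 22 h minus those at 3 h gave -1.73 (SE 0.87, 95% interval -3.59 to 0.14; adjusted p = 0.375 in limma), in a comparison that 1.3% of probes passed. Without control B of 22 h the difference was -0.64, and with normexp it was -0.24. The SM30 controls exceeded the AS30 controls at 3 h by 0.22 (SE 0.87, 95% interval -1.65 to 2.08; adjusted p = 0.879 in limma). In that comparison 26.8% of all probes passed, so the 2 sets of controls differed widely elsewhere.

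Treated and control arrays of a class mostly lay on different slides, so differences within a slide were also taken. On slide 4, treated SM30 replicate A exceeded the SM30 controls A, B and C by 5.91, 5.87 and 5.49. On slide 3, the 22 h treated replicates A, B and C differed from control C of that time by 2.45, -0.25 and 2.40, so replicate B showed no rise over the 1 control hybridised beside it. On slide 1, control A of 22 h differed from the 3 h controls A, B and C by -0.85, -1.88 and -1.12. No slide held AS30-treated cells and controls of 3 h together. A fit with slide as a fixed block joins them only through the 22 h controls B, on slide 2, and A, on slide 1. Control B is the dimmest spot, with a processed signal of 11.5, so the AS30 ratio of 3 h in that fit, and any difference from it, rests on that spot. At 22 h that fit rests on control C alone, and for SM30 on treated replicate A alone. With slide as a fixed block the mean ratios were 5.76 for SM30, 7.95 for AS30 at 3 h and 1.54 for AS30 at 22 h, and the SM30 response minus the AS30 response was then -2.20 (adjusted p = 1 in limma).

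The genes around LOC387763 were examined within 1 Mb on either side, by the probe positions in hg18. Of 21 genes listed there 19 were measured, and where a gene had several probes the brightest was used. In limma 0 rose and 1 fell after SM30, 0 rose and 1 fell after AS30 at 3 h, and 2 rose and 0 fell after 22 h, beside 7.49%, 2.52% and 3.58% of all probes called. At an unadjusted p under 0.05 in limma it was 4 higher and 1 lower, 2 higher and 3 lower, and 5 higher and 1 lower. Of all probes, 7207 of 28664, 6964 of 28596 and 6452 of 28155 were under that level in either direction, so nothing is read from these counts. The median log2 ratio of the 19 was 0.06, -0.07 and 0.13 in the 3 classes, against -0.05, 0.01 and 0.00 over all probes tested. The highest ratio was 1.19 after SM30, 0.85 after AS30 at 3 h and 0.89 at 22 h, all of the brightest probe of a gene and below the 5.64, 5.35 and 3.25 of LOC387763. With normexp the ratio of LOC387763 at 22 h, 0.86, lay close to that of its neighbour HSD17B12, 0.66.

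The neighbours next to it gave small ratios. ALKBH3, at -42.2 kb from the LOC387763 probe, had log2 ratios of -0.07, 0.20 and 0.24 after SM30, AS30 at 3 h and AS30 at 22 h. EXT2, which builds heparan sulfate chains and lies 301 kb after it, had 0.03, -0.02 and 0.10. None of these 6 values passed the test. ACCS, named for its likeness to a plant ethylene enzyme, at 140 kb after it, had 0.25 and 0.20 at 3 h and rose by 0.55 at 22 h (SE 0.11, adjusted p = 0.0379 in limma), and HSD17B12, a fatty acid elongation enzyme at -87.5 kb, rose by 0.80 at 22 h (SE 0.16, adjusted p = 0.0458 in limma). Of its dimmer probes one rose by 2.17 in the 2 pairs that measured it (2.72 and 1.62, adjusted p = 0.018 in limma), and the other had 0.54 and did not pass. DKFZP564C152 and BX107298, whose probes lie just after that of HSD17B12, had 0.89 and 0.76 at 22 h and did not pass.

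The falls were those of ALX4, a homeobox factor, by 0.67 after SM30 (-0.67, adjusted p = 0.0323 in limma), and of the unnamed transcript THC2694735 after AS30 at 3 h (-1.54, adjusted p = 0.0296 in limma), with 2 of 3 pairs measured. Each of the 4 calls was lost with some pair left out, which gave counts of 0 to 1 after SM30, 0 to 2 after AS30 at 3 h and 0 to 3 at 22 h. Calls over all probes moved in these refits too, as given below. CD82, a tetraspanin, had the 1.19 after SM30 without passing, on pair ratios of 0.57, 0.60 and 2.38. The others measured were AK126814, API5, TTC17, LOC120449, A_24_P50639, THC2739352, THC2526765, TSPAN18 and TP53I11, of which none passed in any class.

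BC024745, on the opposite strand beside LOC387763, stayed near background. Its normalised signal was 15.8, 17.9 and 10.9 in SM30-treated A, B and C, and 8.74 to 13.2 in their controls. The spot was well above background on 1 of 18 arrays, AS30-treated replicate B at 3 h, with a signal of 41.4. Its log2 ratio was 0.38 (SE 0.28, adjusted p = 0.46 in limma) after SM30 and 0.85 (SE 0.35, adjusted p = 0.21 in limma, 2 pairs) after AS30 at 3 h. The probes are strand-specific in design, and on the plus strand the same 3 SM30 pairs had 5.24 or more.

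**Figure D3:**
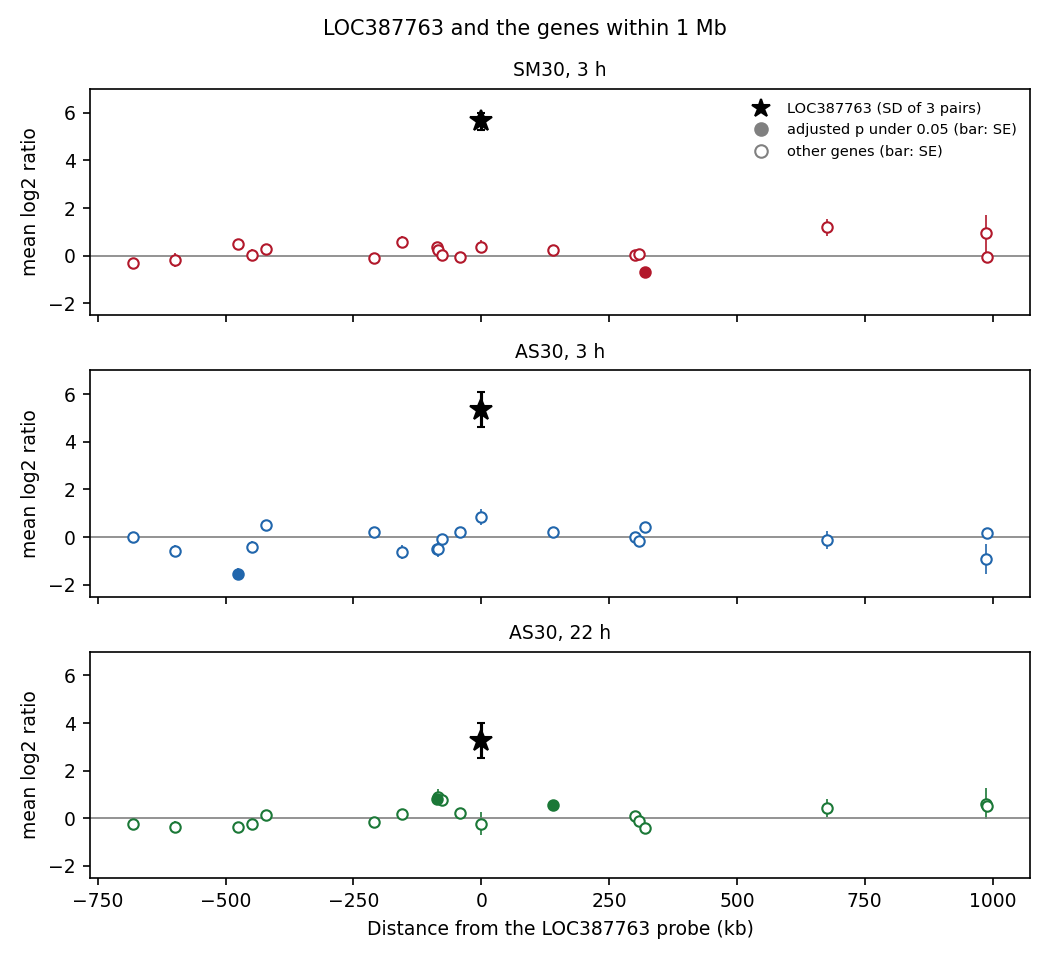
Mean log2 ratio of LOC387763 (star, bar: SD of 3 pairs) and of 19 genes within 1 Mb (circles, bar: SE; filled where the adjusted p was under 0.05) against the distance of their probes, in 3 panels for the 3 classes. The stars stand at 5.64, 5.35 and 3.25, and no circle, the brightest probe of its gene, is above 1.19.

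Some immediate-early genes changed after both NPs at 3 h. Of 35 listed, 32 were measured, each again by its brightest probe. After SM30, 11 rose and 4 fell, in a comparison where 4.35% of all probes were called higher and 3.13% lower. After AS30 at 3 h 4 rose and 3 fell, against 1.5% and 1.01%, and at 22 h 1 rose and 1 fell, against 2.54% and 1.04%. The median log2 ratio of the 32 was 0.53, 0.33 and -0.02. These counts are not stable, with 2 to 16 called after SM30 and 1 to 10 after AS30 at 3 h as single pairs were left out. Calls over all probes moved in the same refits, from 291 of 28546 to 2720 of 28654 after SM30 and from 81 of 28428 to 3061 of 28516 after AS30 at 3 h. With slide as a fixed block the immediate-early genes called were 1 after SM30 and 0 after AS30 at 3 h, beside 334 of 28665 and 123 of 28618 probes.

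KLF6, a zinc finger transcription factor, led the list after SM30 with a rise of 2.17 (SE 0.17, adjusted p = 0.000951 in limma), followed by PTGS2, the inducible cyclooxygenase, with 2.02 (SE 0.45, adjusted p = 0.0331 in limma). FOSB, a partner of JUN in AP-1, had the next ratio, 1.41, without passing. JUN itself rose by 1.35. After AS30 at 3 h NR4A2, an orphan nuclear receptor, rose by 1.60, KLF6 by 1.49 and DUSP5, a phosphatase of ERK, by 1.06. The 3 dimmer KLF6 probes rose too, by 2.00, 2.45 and 1.16 after SM30 and by 2.73, 1.87 and 2.02 after AS30 at 3 h. At 22 h the calls were a rise of NR4A3 by 0.73 and a fall of EGR1, a zinc finger factor induced by growth factors, to -1.66. DUSP5 and MCL1, an antiapoptotic relative of BCL2, had 0.63 and 0.51 there and did not pass. A dimmer MCL1 probe passed at 3 h, with rises of 1.35 after SM30 and 0.97 after AS30.

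CTGF and CYR61, matricellular proteins that respond to YAP, fell after both NPs at 3 h, to -1.09 and -0.82 after SM30 and to -1.28 and -1.29 after AS30. EGR1 was at -1.58 after SM30 and passed. KLF10 had the lowest mean after SM30, -1.99, through a single pair at -5.53, and did not pass. At 22 h FOSB was at -1.67 and FOS at -0.91, both without passing. SRF, the serum response factor, fell after both NPs at 3 h, to -0.47 and -0.59. Of its dimmer probes one had -0.75 after SM30, which passed, and -0.67 after AS30 at 3 h, which did not. The other had -0.43 and 0.44 without passing.

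**Figure D4:**
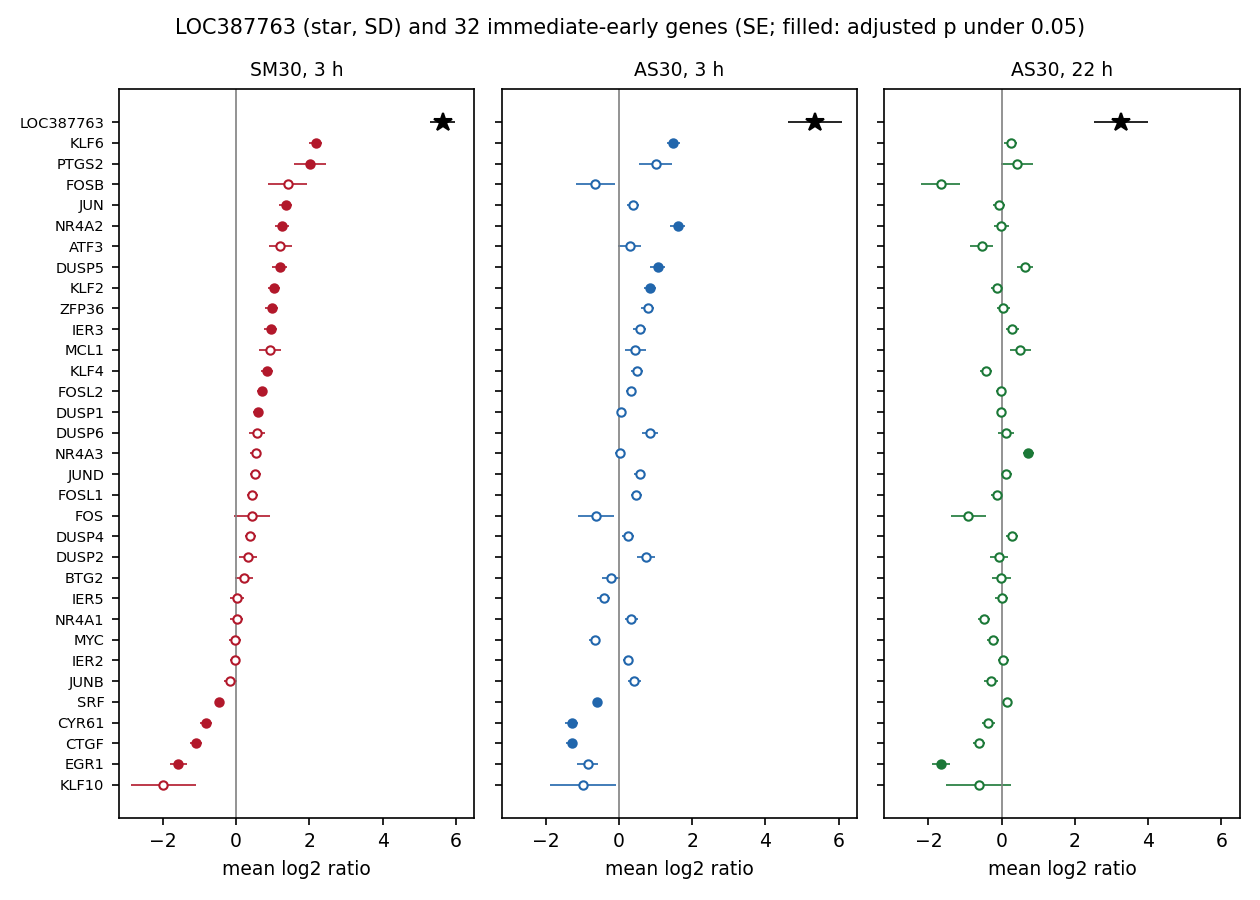
Mean log2 ratio of LOC387763 (star, bar: SD) and of 32 immediate-early genes (circles, bar: SE; filled where the adjusted p was under 0.05) in the 3 classes, ordered by the ratio after SM30. Each gene is shown by its brightest probe, the highest at 2.17 after SM30, and the stars stand at 5.64, 5.35 and 3.25.

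The genes whose signal followed that of LOC387763 most closely were found by Pearson r of the log2 signal over the 18 arrays, among 17438 genes measured on all of them. The 10 highest were BTG1 at 0.97, PLAUR at 0.97, OTUD1 at 0.96, CCNG2, PNRC1 and MXD1 at 0.96, HECA and DUSP5 at 0.95, and CREM and SNN at 0.94. The 99th percentile of all genes was 0.85. BTG1 and CCNG2 are known as restraints on proliferation, MXD1 as an antagonist of MYC, PLAUR as the urokinase receptor and CREM as a cAMP-responsive factor. The arrays of a group share their treatment and often their slide, and r is given as a description.

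All 10 had mean ratios above 0 in the 3 classes, all of them smaller than that of LOC387763. The 10 were picked by r over these same arrays, so neither these signs nor the r over parts of the arrays are separate evidence. CCNG2 had log2 ratios of 2.92, 2.34 and 1.54 in the 3 classes, and PLAUR 1.69, 1.34 and 1.02. BTG1 had 1.21, 0.86 and 0.66. Over the 9 treated arrays alone r was 0.92 to 0.98 for the 10 genes, and over the 9 controls 0.41 to 0.94, the lowest for SNN. Over the 9 ratios it was 0.57 to 0.89, and 0 of the 10 were among the 10 highest by that measure. With 75th-percentile scaling 9 of the 10 were shared, and with normexp 5. The lowest r were those of GEMIN4, of the SMN complex, at -0.94, of MCM10, a DNA replication factor, at -0.94 and of ORC5, of the origin recognition complex, at -0.93. These had ratios of -0.73, -0.56 and -0.60 after SM30.

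**Figure D5:**
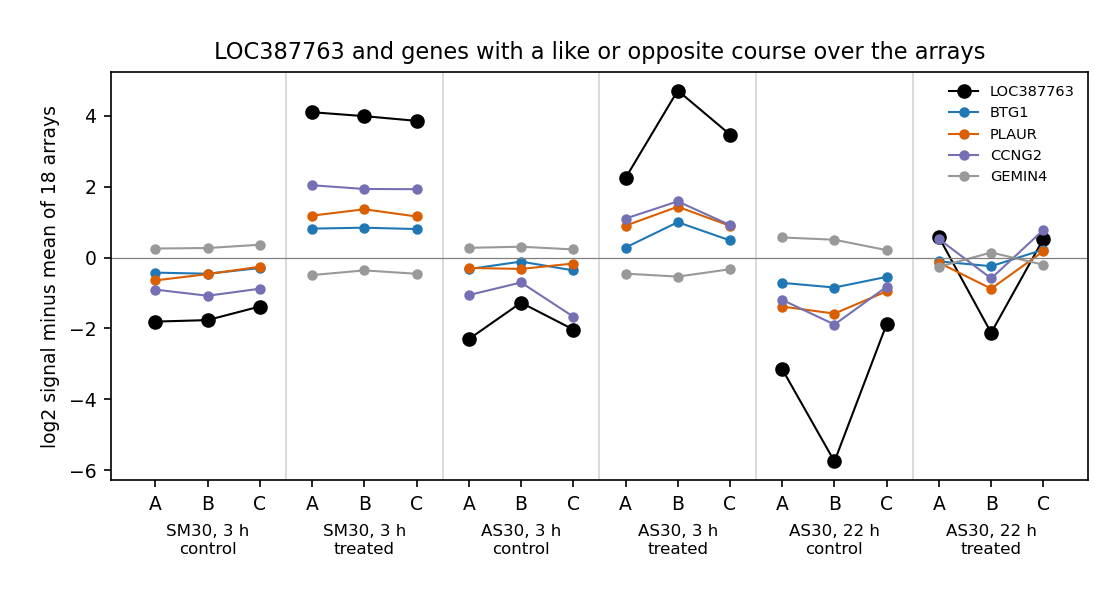
Log2 signal of LOC387763, BTG1, PLAUR, CCNG2 and GEMIN4 on each of the 18 arrays (letters A to C within each of 6 groups), each minus its own mean over the arrays. LOC387763 has the widest course, BTG1, PLAUR and CCNG2 (r of 0.96 to 0.97) run with it and GEMIN4 (r of -0.94) against it.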

How the data were processed

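For each array a scanner file was deposited, with spot intensity on a linear scale from Agilent Feature Extraction 10.5.1.1, and the authors added their quantile-normalized intensity values. LOC387763 and the gene lists were chosen with earlier results of these data known. Groups came from the labels, and treated arrays were paired with control arrays by letter, which is an assumption.

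In R (version 4.3.3; limma 3.58.1, statmod 1.5.0), the log2 processed signal of noncontrol spots was quantile normalized over 18 arrays. Outlier spots and spots not positive and significant were left out, replicate spots averaged, and probes over 33% missing removed, leaving 28665 of 41000. Log2 ratios over the same-letter control were fitted in 3 classes, and control groups in a fit of 18 arrays, with Benjamini-Hochberg adjustment over all probes and a threshold of 0.05. The fit was tested on simulated data. Symbols came from RefSeq accessions for 19026 probes and from the files otherwise. Named genes were LOC387763, its neighbours within 1 Mb, the 10 highest and 3 lowest r, the 5 largest rises of a class, and the 3 largest rises and falls of the immediate-early list in a class; JUN, SRF, dimmer probes and single pairs were added after their values were seen. The number of arrays limits the precision. Sequences of the probe, promoter and protein are not used here.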

Additional observations from a re-analysis of the deposited data

Results flagged for a closer look

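Between SM30 and AS30 at 3 h, the immediate-early genes FOSB and JUNB had ratios of opposite signs in every pair, as did 4.75% of probes measured in all pairs. Between AS30 at 22 h and 3 h, FOSL1 and KLF4 did, as did 4.92% of such probes. On a list of 32 measured genes this is near the share of all probes, so nothing is read from it. FOSB was higher in all 3 SM30 pairs (1.51, 1.59 and 1.13) and lower in all 3 AS30 pairs at 3 h (-0.23, -0.76 and -0.94), a difference of 2.06 with an adjusted p of 0.286 in limma. JUNB was lower in all SM30 pairs and higher in all AS30 pairs at 3 h, a difference of -0.57 (adjusted p = 0.344). FOSL1 and KLF4 were above 0 in all AS30 pairs at 3 h and below 0 in all at 22 h, though in pair A by only -0.014 and -0.00075, with differences of -0.60 (adjusted p = 0.225) and -0.93 (adjusted p = 0.142). These signs are those of the brightest probe of each gene. A dimmer JUNB probe had 0.40, -0.09 and -0.30 in the SM30 pairs, and a dimmer FOSL1 probe had 0.036 in pair B at 22 h. Neither dimmer probe thus had opposite signs in every pair. None of the 4 differences passed the test, and LOC387763 was above its control in every pair.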

How the results depend on the processing

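LOC387763 kept a mean ratio above 0 in each class under all 19 alternatives, at 3.85 to 5.84 after SM30, 3.31 to 7.95 after AS30 at 3 h and 0.86 to 3.68 at 22 h. Its ratio moved beyond 1 SD with normexp (3.85, 3.31 and 0.86 in these classes) and with slide as a fixed block (7.95 at 3 h and 1.54 at 22 h). With slide as a fixed block, the 7.95 and the differences that use it rest on the dim control B of 22 h. With single pairs left out the means were 5.50 to 5.84, 5.03 to 5.75 and 3.02 to 3.68. The SM30 response minus the AS30 response was 0.29, reversed to -2.20 with slide as a fixed block and to -0.11 without the A pair of AS30, and ranged from -0.11 to 0.61 with single pairs left out. The difference between 22 h and 3 h passed with the mean of the 3 controls as denominator (-2.73, adjusted p = 0.0435), was -6.42 with slide as a fixed block (adjusted p = 0.224), and had adjusted p from 0.0435 to 0.443 over the alternatives and -2.49 to -1.67 with single pairs left out. That denominator also raised the probes called after SM30 from 2146 to 9459, after AS30 at 3 h from 720 to 10002 and at 22 h from 1008 to 8849. With slide as a fixed block these were 334, 123 and 325, and without a filter on dim spots 1292, 274 and 508. The AS30 controls at 22 h minus 3 h ranged from -2.59 to -0.64 with single arrays left out and were -0.24 with normexp (adjusted p = 0.843). With slide as a fixed block the SM30 and AS30 controls could not be compared, since no slide holds both.

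The letters did not clearly pair the arrays. Deviations of same-lettered treated and control arrays from their group means correlated at -0.09 to 0.45 over all probes. In a fit of the 18 arrays in place of the 9 ratios, with no replicate block, the mean ratios of LOC387763 were the same, the adjusted p of the response differences were 0.938 and 0.443, the probes called at 3 h after AS30 were 1313 against 720 (1445 in the same fit with the letter as a replicate block), and 1 immediate-early gene was called at 22 h. With the letter as a replicate block, the control differences stayed at -1.73 (adjusted p = 0.357) and 0.22 (adjusted p = 0.878).

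Counts over the lists moved as well. Near genes called, 1, 1 and 2 in the 3 classes, became 0 after SM30 with normexp, 0 in each class without a filter on dim spots and with slide as a fixed block, 0 in both 3 h classes among probes detected on all 18 arrays, and 5, 8 and 7 with the mean of the 3 controls. Immediate-early genes called, 15, 7 and 2, became 1, 0 and 1 with slide as a fixed block, 4 and 1 after AS30 at 3 h and 22 h without a filter, 15 and 4 there with the mean of the controls, 11 after AS30 at 3 h with slide as a random block, and 1 at 22 h among probes detected on all arrays, with outlier spots kept and in the deposited table. With single pairs left out, near genes called were 0 to 1, 0 to 2 and 0 to 3, and immediate-early genes 2 to 16, 1 to 10 and 0 to 2. Calls over all probes were then 291 to 2720, 81 to 3061 and 2 to 1363. The 28 calls of single neighbours and immediate-early genes held in 362 of 526 refits and were weaker in 162. THC2694735 after AS30 at 3 h reversed to 0.50 without a filter on dim spots and to 0.034 with slide as a fixed block, and BC024745 after SM30 to -0.016 with normexp. The cause was not tested.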
